A study of Mus musculus with 5 samples.

Results

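The genes described here are 10 mouse genes of transforming growth factor beta (TGF-beta) signalling, chosen by symbol out of the 27179 gene identifiers in the count table. They are the ligand gene Tgfb1, the activating integrin chain Itgb8, the receptor genes Tgfbr1 and Tgfbr2, the signal transducers Smad2, Smad3 and Smad4, and the inhibitors Smad7, Ski and Skil. Transcripts were counted in 3 libraries of group 3 innate lymphoid cells (ILC3) and 2 libraries labelled CD4 T, all from C57BL/6 mice of wild type genotype. The ILC3 sort took CD45+CD3-CD127+ cells carrying the RORγt GFP reporter, and the CD4 T sort took CD45+CD3+CD4+ cells. The sorts drew on 3 mice, and the labels do not tie libraries to mice or give age or treatment. The p-values therefore reflect only how far these libraries vary, which may be technical. The series title concerns interleukin-2 from innate lymphoid cells and regulatory T cells in the intestine.

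TGF-beta is secreted in a latent complex, from which integrins such as the αvβ8 heterodimer release the active cytokine. The freed ligand binds the TGFBR2 kinase, which phosphorylates TGFBR1, and TGFBR1 phosphorylates SMAD2 and SMAD3, which enter the nucleus with SMAD4. SMAD7 and the corepressors SKI and SNON (the Skil product) restrain the pathway, and Smad7 and Skil are themselves induced by it in many cells. In the intestine TGF-beta is known for the induction of regulatory T cells and for the residency of intraepithelial lymphocytes.

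Depth ran from 15123715 to 25956023 counts per library. All 10 fixed ILC3 markers were higher in ILC3, with summed levels of 25932 to 28321 CPM (counts per 1000000 counts, on the TMM scale) in ILC3 and 379 to 686 CPM in CD4 T. Of 10 CD4 T markers, 5 were lower in ILC3, and the summed levels overlapped, at 997 to 1818 CPM in ILC3, against 1332 to 3458 CPM in CD4 T, with Cd6 at 0 in ILC3. The libraries of both groups also held transcripts of other cell types. Of 12 myeloid markers 8 were lower and 1 was higher in ILC3, with sums of 189 to 224 CPM in ILC3, against 1619 to 2134 CPM in CD4 T, and Clec10a and Cd33 at 0 in ILC3. Of 8 plasmacytoid dendritic cell markers 7 were lower in ILC3, with sums of 254 to 665 CPM in ILC3, against 4165 to 4957 CPM in CD4 T. Of 4 CD8 T cell markers 3 were lower in ILC3, with sums of 0.117 to 1.55 CPM in ILC3, against 586 to 637 CPM in CD4 T, Gzmk at 0 in ILC3 and Eomes at 0 in CD4 T. Of 4 platelet markers only Pf4, which macrophages can also express, was tested, and it was lower in ILC3, with list sums of 5.77 to 16.4 CPM in ILC3, against 242 to 699 CPM in CD4 T and with Ppbp and Gp9 at 0 in ILC3. None of the 7 B and plasma cell, 3 epithelial and 1 stromal or endothelial markers tested was called by edgeR or limma-voom. At an unadjusted edgeR p under 0.05, 1 B and plasma cell marker was higher and 1 epithelial marker lower in ILC3, and DESeq2 called Cd79a higher and Krt8, Epcam and Kdr lower. The B and plasma cell sums were 48009 to 277642 CPM in ILC3, against 56934 to 78504 CPM in CD4 T, with Pax5 at 0 in every library. The part of these other cell types in the differences below was not tested. In such bulk libraries, fewer cells of a type and less RNA per cell cannot be told apart.

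Both receptor genes and the inhibitor Smad7 were lower in ILC3, Smad2 was higher, and Tgfb1, Smad3, Smad4, Ski and Skil did not pass the test. Counts were compared with edgeR's quasi-likelihood test over 12747 genes, and a gene is called at a Benjamini-Hochberg adjusted p under 0.05. Of the 9 members that passed the filter on low counts, 3 were lower, where 7.21% of all genes tested were lower, and 1 was higher, where 6.46% were higher. Together 4 of 9 were called, beside 13.7% of all genes. The members were chosen with earlier results of these data known, so this comparison is a description and not a test. The tenth, Itgb8, did not pass the filter and was not tested. The 4 called members had libraries that did not overlap between the groups, which also held for 25.5% of all genes in the higher and 29.6% in the lower direction. The median log2 fold change of ILC3 over CD4 T was -0.26 over the 9 members and -0.10 over all genes.

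**Figure D1:**
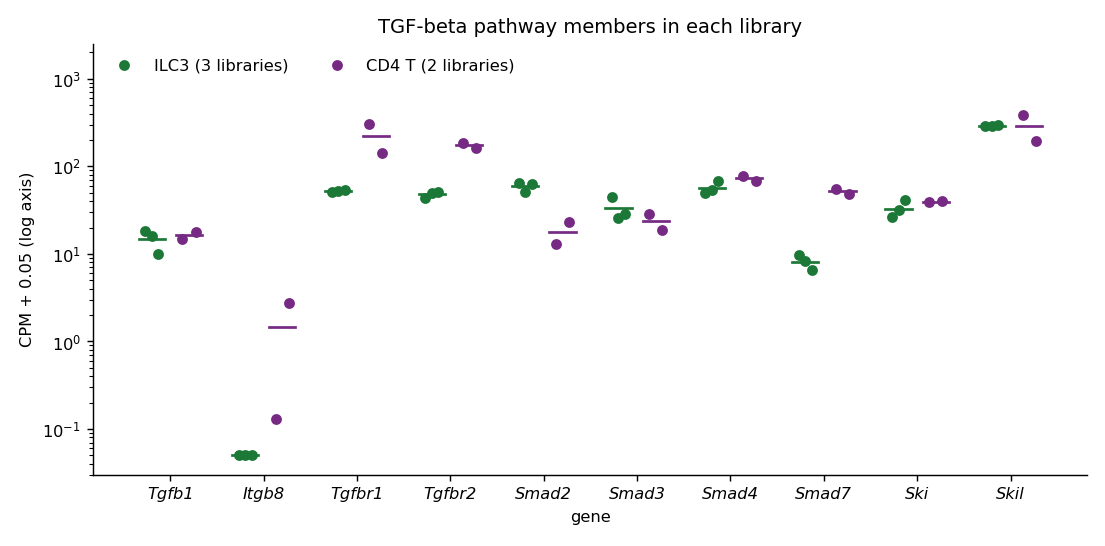
CPM plus 0.05 on a log axis for each member gene, with a point for each of the 3 ILC3 and 2 CD4 T libraries and a bar at each group's mean. Tgfbr1, Tgfbr2 and Smad7 lie lower and Smad2 higher in all ILC3 libraries, and Itgb8 is at 0 in ILC3.

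Among the genes for the ligand and its release, the levels of Tgfb1 overlapped between the groups. Tgfb1 (chromosome 7, 25687002 to 25705077 in GRCm38), which encodes the main TGF-beta of the immune system, was 18.3, 15.8 and 9.82 CPM in ILC3, against 14.8 and 17.8 CPM in CD4 T. The CD4 T libraries lay within the range of the ILC3 libraries. Its log2 difference was -0.15 (SE 0.456, edgeR adjusted p = 0.852).

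Itgb8 (chromosome 12, 119162803 to 119238276), the β8 chain known in mice from dendritic cells and regulatory T cells, had no count in any ILC3 library and 2 and 50 counts in the CD4 T libraries. At this depth a count of 0 is compatible with as many as 3 counts, that is 0.108 to 0.192 CPM in the ILC3 libraries. The CD4 T levels were 0.0793 CPM in replicate 1 (exact 95% counting interval 0.0096 to 0.286) and 2.71 CPM in replicate 2 (2.01 to 3.57). Intervals and floors here cover counting error only. The transcript was thus detected in CD4 T, almost wholly in replicate 2, and replicate 1 lay below the limits that the ILC3 libraries allow. Against 3 counts over the summed ILC3 libraries, Itgb8 was at least 24.0-fold lower in ILC3. That bound was at least 54.5-fold without CD4 T replicate 1 and at least 13.0-fold without ILC3 replicate 1. Without CD4 T replicate 2 the 2 counts left in CD4 T lay under the floor of 3 counts, as did the 0 counts in ILC3, so no fold is given and the difference was not detectable at this depth. With no filter on low counts Itgb8 entered the edgeR fit and was not called (adjusted p = 0.105).

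The type I receptor gene Tgfbr1 (chromosome 4, 47353222 to 47414926) was 51.5, 52.3 and 53.0 CPM in ILC3, against 306 and 143 CPM in CD4 T. The ILC3 libraries were nearly equal, and both CD4 T libraries were higher but differed from each other. The means were 52.3 ± 0.72 CPM in ILC3 (SD, n = 3), against 225 ± 115 CPM in CD4 T (SD, n = 2), and the log2 difference was -2.10 (SE 0.364, edgeR adjusted p = 0.0166). Without CD4 T replicate 1 the difference was -1.45 and was still called (edgeR adjusted p = 0.0313). Tgfbr1 was not called without ILC3 replicate 1 (edgeR adjusted p = 0.0659), replicate 2 (0.0663) or replicate 3 (0.0594), at log2 fold changes of -2.10, -2.10 and -2.11. The summed levels of the 12 myeloid markers were 1619 CPM in CD4 T replicate 1 and 2134 CPM in replicate 2. Of these markers only Lyz2 (659 and 1592 CPM) and Cd68 (53.1 and 159.5 CPM) were higher in replicate 2. All the other myeloid markers were lower in replicate 2, such as Csf1r at 222 and 102 CPM. The summed CD4 T markers were 1332 CPM in CD4 T replicate 1 and 3458 CPM in replicate 2. Of these markers only Cd4 was lower in replicate 2, at 142 and 90.1 CPM. All the other CD4 T markers were higher in replicate 2, such as Cd3e at 54.9 and 201 CPM. The part of such cells in the Tgfbr1 level was not tested.

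The type II receptor gene Tgfbr2 (chromosome 9, 116087695 to 116175363), whose product binds the ligand first, was 44.0, 49.8 and 50.3 CPM in ILC3, against 186 and 162 CPM in CD4 T. Every ILC3 library lay below both CD4 T libraries, and each group varied little. The means were 48.0 ± 3.47 CPM in ILC3 (SD, n = 3), against 174 ± 17.1 CPM in CD4 T (SD, n = 2). For Tgfbr2 the log2 difference was -1.85 (SE 0.256, edgeR adjusted p = 0.00953). It ran from -1.94 to -1.75 when any single library was left out, and the gene was called each time.

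Promoter windows of 250 bases before the annotated start, from RefSeq on GRCm38.p6, are shown for these receptor genes because they were lower together. Of the 10 members, 6 have a window in the RefSeq table, Tgfbr1 at 2 starts, of which the upstream one is printed. Capitals mark GGGCGG or its reverse complement CCGCCC, known as the GC box bound by SP1, and CAGAC or its reverse complement GTCTG, a SMAD binding element. The sequences run 5′ to 3′ on the strand of the gene.
Tgfbr1, chr4:47352972-47353221, plus strand: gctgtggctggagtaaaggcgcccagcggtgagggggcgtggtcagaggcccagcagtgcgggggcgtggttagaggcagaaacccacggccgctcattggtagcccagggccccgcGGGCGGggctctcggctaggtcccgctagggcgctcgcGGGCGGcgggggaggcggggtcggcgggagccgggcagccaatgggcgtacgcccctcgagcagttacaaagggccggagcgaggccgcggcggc
Tgfbr2, chr9:116175364-116175613, minus strand: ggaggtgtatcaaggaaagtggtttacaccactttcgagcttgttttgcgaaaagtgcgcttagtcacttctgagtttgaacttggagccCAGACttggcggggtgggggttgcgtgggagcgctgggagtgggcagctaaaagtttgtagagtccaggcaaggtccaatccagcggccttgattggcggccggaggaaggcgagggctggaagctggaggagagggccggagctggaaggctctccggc
The Tgfbr1 window held 2 GC boxes and no CAGAC element, at 74.8% G and C. The Tgfbr2 window held no GC box and 1 CAGAC element, at 58.4% G and C. Across all 32851 windows of that length in the table, 32.7% held a GC box and 42.2% a CAGAC element, with a median of 52.4% G and C. Among the other members, the Tgfb1 and Ski windows held 5 GC boxes each, that of Smad3 held 2, and none of these held CAGAC. The Itgb8 window and the window at the second Tgfbr1 start each held 1 CAGAC and no GC box, and no marked GC box and CAGAC shared a base. A match is a description of the sequence and not a binding site.

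Among the signal transducers Smad2 was higher in ILC3, and its close relative Smad3 and the shared partner Smad4 did not pass the test. Smad2 (chromosome 18, 76241090 to 76311748), a receptor-phosphorylated SMAD, was 64.2, 51.1 and 62.4 CPM in ILC3, against 13.1 and 22.8 CPM in CD4 T. All ILC3 libraries were above both CD4 T libraries. The means were 59.2 ± 7.08 CPM in ILC3 (SD, n = 3), against 17.9 ± 6.87 CPM in CD4 T (SD, n = 2), and the log2 difference was 1.72 (SE 0.368, edgeR adjusted p = 0.0307). Smad2 was not called without ILC3 replicate 1 (edgeR adjusted p = 0.0903), 2 (0.0778) or 3 (0.0794) and without CD4 T replicate 1 (0.0764). Nor was it called with library size alone, where the log2 fold change of Smad2 was 1.25 (edgeR adjusted p = 0.105) and the median of all genes was -0.60.

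Smad3 (chromosome 9, 63646766 to 63757994), the receptor-phosphorylated SMAD that binds DNA directly, was 44.8, 25.6 and 28.6 CPM in ILC3, against 28.4 and 18.8 CPM in CD4 T. The groups overlapped, and ILC3 replicate 1 stood above the other libraries. For Smad3 the log2 difference was 0.48 (SE 0.4, edgeR adjusted p = 0.446).

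Smad4 (chromosome 18, 73634790 to 73703791), the common partner of the phosphorylated SMADs, was 49.0, 53.6 and 68.8 CPM in ILC3, against 76.9 and 68.6 CPM in CD4 T. ILC3 replicate 3 lay at the level of CD4 T replicate 2, and the other ILC3 libraries lay lower. For Smad4 the log2 difference was -0.35 (SE 0.284, edgeR adjusted p = 0.441).

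Of the 3 inhibitors, Smad7 was lower in ILC3, and the corepressor genes Ski and Skil were not called. Smad7 (chromosome 18, 75367365 to 75395935), which blocks SMAD phosphorylation and brings ubiquitin ligases to the receptor, was 9.60, 8.26 and 6.49 CPM in ILC3, against 55.8 and 47.7 CPM in CD4 T. No ILC3 library came near the CD4 T libraries. The means were 8.12 ± 1.56 CPM in ILC3 (SD, n = 3), against 51.8 ± 5.80 CPM in CD4 T (SD, n = 2). The log2 fold change of -2.67 was the farthest from 0 among the tested members (SE 0.348, edgeR adjusted p = 0.00789). It ran from -2.82 to -2.53 when any single library was left out, and the gene was called each time.

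Ski (chromosome 4, 155154075 to 155222535), a corepressor that binds SMAD complexes, was 26.1, 31.5 and 41.3 CPM in ILC3, against 39.3 and 39.7 CPM in CD4 T (log2 difference -0.26, SE 0.324, edgeR adjusted p = 0.625). The CD4 T values fell within the ILC3 range. Skil (chromosome 3, 31095058 to 31122923), the related corepressor, was 292, 287 and 296 CPM in ILC3, against 388 and 196 CPM in CD4 T. Its ILC3 libraries were nearly equal and lay between the CD4 T libraries. For Skil the log2 difference was -0.00054 (SE 0.353, edgeR adjusted p = 1.0), with 0.58 when CD4 T replicate 1 was left out and -0.40 when replicate 2 was left out, neither of them called.

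**Figure D2:**
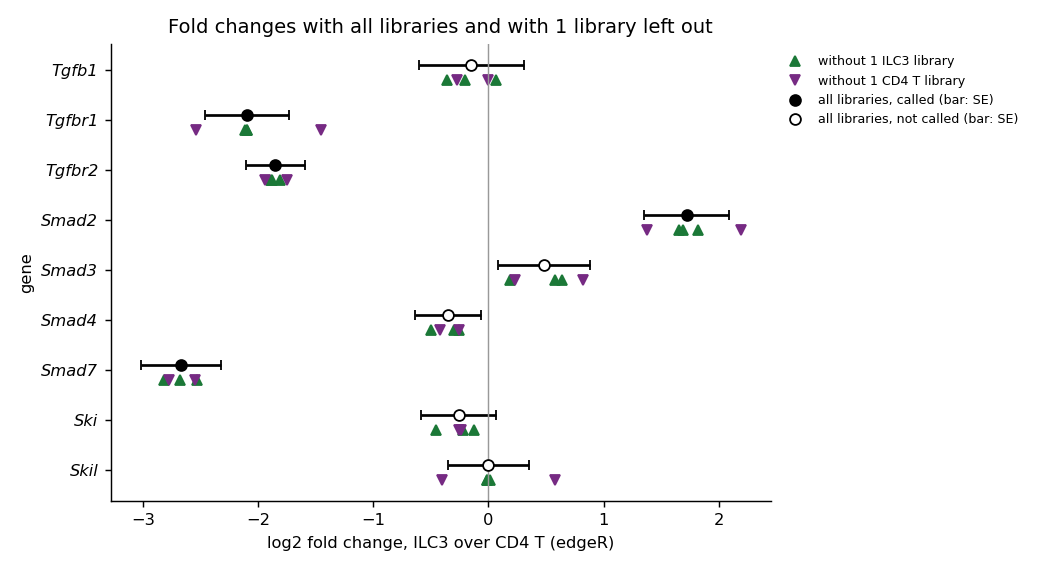
Log2 fold change of ILC3 over CD4 T for the 9 tested members on the x axis, with circles for the fit of all libraries (bars are SE, filled where called) and triangles for fits without 1 library. Smad7 and Tgfbr2 moved little, while Tgfbr1 ran from -2.54 to -1.45 and Skil from -0.40 to 0.58.

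Ratios of members within a library do not depend on how libraries are scaled, and were taken per kilobase of annotated exon. Smad7 per Smad4 was 0.160, 0.126 and 0.077 in ILC3, against 0.593 and 0.568 in CD4 T, a difference of -2.33 in mean log2 ratio. Smad3 per Smad2 was 1.18, 0.846 and 0.774 in ILC3, against 3.66 and 1.39 in CD4 T, a difference of -1.30. For both ratios every ILC3 library lay below both CD4 T libraries. By contrast, Tgfbr1 per Tgfbr2 was 1.49, 1.34 and 1.34 in ILC3, against 2.10 and 1.13 in CD4 T, and Skil per Ski was 9.20, 7.50 and 5.89 in ILC3, against 8.11 and 4.06 in CD4 T. These ratios overlapped between the groups. They are given without a test, and a ratio of Itgb8 to Tgfb1 was not formed because Itgb8 had no count in ILC3.

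**Figure D3:**
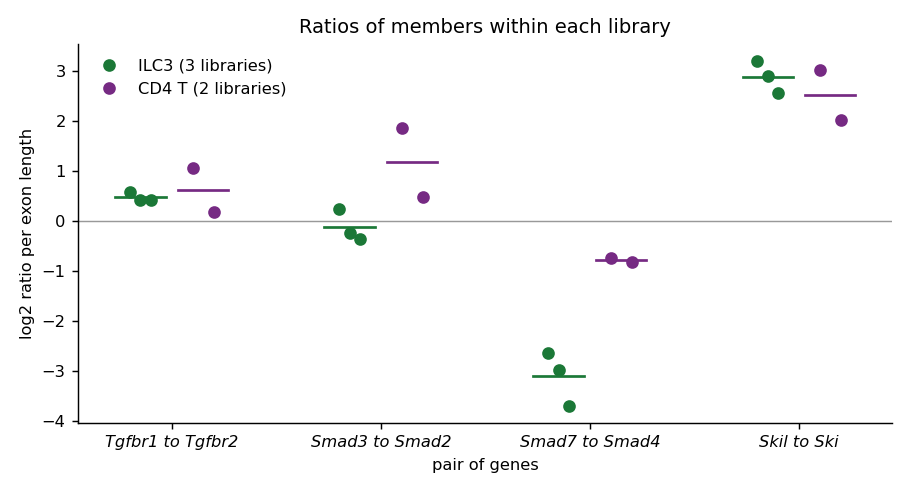
Log2 ratio of the first to the second gene per exon length on the y axis, for 4 pairs of members, with a point for each of the 3 ILC3 and 2 CD4 T libraries and a bar at each group's mean. The Smad3 to Smad2 and Smad7 to Smad4 ratios do not overlap between the groups.

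The order of the members by level per exon length also differed between the groups. Skil came first in ILC3 at 43.4 ± 0.644 CPM per kilobase (SD, n = 3), and first in CD4 T at 43.5 ± 20.2 CPM per kilobase (SD, n = 2). In ILC3 it was followed by Smad4 at 16.0 ± 2.90 CPM per kilobase and Tgfbr1 at 8.15 ± 0.112, and the ranges of these first 3 genes did not overlap. Smad2 (6.89 CPM per kilobase), Tgfb1 (6.73), Smad3 (6.48), Ski (5.97) and Tgfbr2 (5.87) came next in ILC3, each overlapping its neighbour. The Tgfbr1 range of 8.03 to 8.26 lay within those of Tgfb1 (4.51 to 8.43) and Smad3 (5.03 to 8.80), so its place above these was not clear by this length. Smad7 was last of the detected members in ILC3, at 1.85 ± 0.356 CPM per kilobase, below the range of Tgfbr2.

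In CD4 T the receptor genes stood near the top and Smad2 near the bottom. Tgfbr1 at 35.0 ± 17.9, Tgfbr2 at 21.2 ± 2.08 and Smad4 at 20.3 ± 1.64 CPM per kilobase followed Skil in CD4 T, and each neighbouring pair of these overlapped. Smad7 was next at 11.8 ± 1.32 CPM per kilobase, apart from both neighbours. Tgfb1 (7.49 CPM per kilobase) and Ski (7.16) overlapped, and Smad3 (4.63), Smad2 (2.09) and Itgb8 (0.166) followed in CD4 T without overlap. Lengths are the union of annotated exons, so the transcript forms present in these cells could change the order.

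**Figure D4:**
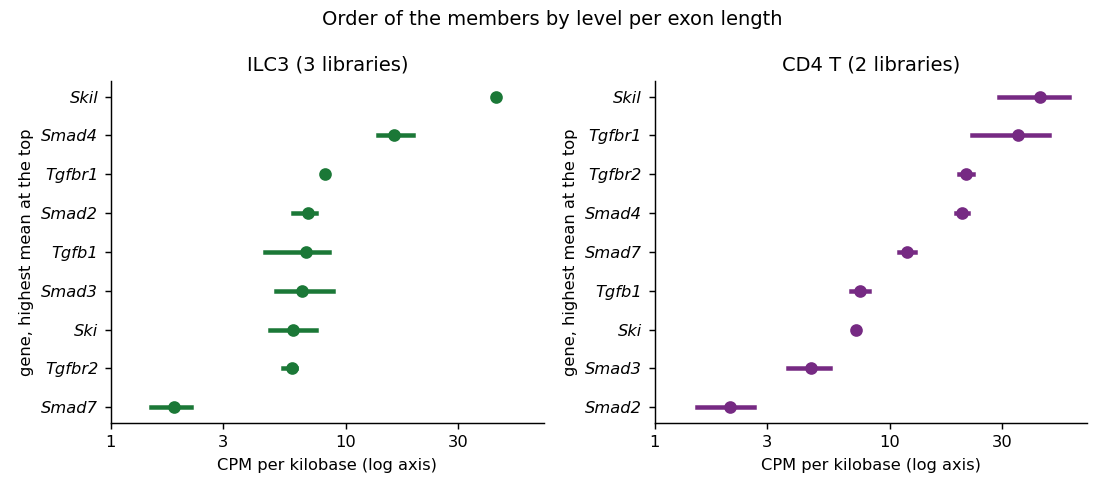
CPM per kilobase of exon on a log axis for the 9 members detected in both groups, ordered by group mean, with a dot at the mean and a line from the lowest to the highest library (3 ILC3 libraries, left, and 2 CD4 T libraries, right). Smad7 is last in ILC3 and above Tgfb1 in CD4 T, and Smad2 is above Tgfb1 in ILC3 and last in CD4 T.

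The wider pathway was read from 6 lists, likewise chosen with earlier results of these data known. They hold 79 different genes, of which 69 are not members. Of the 55 of these tested, 5 were higher and 7 lower in ILC3, beside 6.46% and 7.21% of all genes, and the median log2 fold change was -0.43, beside -0.10. By list, with members included, the medians were -1.38 for ligands, latency and activation, -0.83 for receptors and coreceptors and -0.42 for SMADs and partners. Those of inhibitors and turnover, the non-SMAD branch and responsive genes were -0.51, 0.13 and -1.15. They were the same with genes that had no count in a group set at their bound. Outside the members, the counts of called genes were 9 higher and 11 lower with DESeq2, and 1 higher and 2 lower without ILC3 replicate 2.

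In the list of ligands, latency and activation, 2 of 10 tested genes were lower and 0 higher, beside 7.21% and 6.46% of all genes. At an unadjusted edgeR p under 0.05, 3 were lower and 2 higher. DESeq2, which fitted 17 genes of the list, called 2 lower and 2 higher, and limma-voom called 3 lower and 1 higher. Nrros, which tethers latent TGF-beta on myeloid cells, was 21.2, 10.5 and 18.1 CPM in ILC3, against 199 and 79.7 CPM in CD4 T (log2 difference -3.07, SE 0.491, edgeR adjusted p = 0.0135). Thbs1, thrombospondin 1, which can activate latent TGF-beta, was 0.0361, 1.99 and 3.45 CPM in ILC3, against 564 and 337 CPM in CD4 T (log2 difference -7.97, SE 1.36, edgeR adjusted p = 0.016). Both were far lower in every ILC3 library. Without CD4 T replicate 1 neither was called (edgeR adjusted p = 0.0519 for Nrros, at a log2 fold change of -2.26, and 0.0542 for Thbs1). Without ILC3 replicate 2 Thbs1 was not called (0.0649), and its log2 fold change was -7.38 without ILC3 replicate 1 and -8.86 without replicate 3. Like both genes, 8 of the 12 myeloid markers given above were lower in ILC3, and 1 was higher. In CD4 T replicate 2 both genes were lower than in replicate 1. The summed myeloid markers were higher there (2134 against 1619 CPM). Of the single myeloid markers only Lyz2 and Cd68 were higher there, and all the others were lower. The part of myeloid cells was not tested.

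Other genes of this list were chosen after their values were seen. Lrrc32, which encodes the TGF-beta anchor GARP of regulatory T cells and platelets, was 0, 0 and 1.70 CPM in ILC3, against 14.1 and 17.8 CPM in CD4 T. It was called lower by limma-voom, and was not called by DESeq2 or edgeR (edgeR adjusted p = 0.123). Itgav, the αv partner of β8, was 231, 232 and 286 CPM in ILC3, against 80.2 and 131 CPM in CD4 T (log2 difference 1.24, edgeR adjusted p = 0.0537). DESeq2 and limma-voom called Itgav higher. The αv transcript was therefore present in all libraries, although β8 had no count in ILC3. Tgfb2 was 0.577, 0.961 and 1.64 CPM in ILC3, against 0 in CD4 T (edgeR adjusted p = 0.0645), and DESeq2 called it higher. Tgfb3 was 0, 1.35 and 0.0585 CPM in ILC3, against 2.34 and 3.36 CPM in CD4 T (edgeR adjusted p = 0.403). Furin, the protease that cleaves the TGF-beta precursor, was 53.0 ± 8.43 CPM in ILC3 (SD, n = 3), against 48.6 ± 5.39 CPM in CD4 T (SD, n = 2; edgeR adjusted p = 0.812).

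In the list of receptors and coreceptors, 3 of 11 tested genes were lower and 1 higher, beside 7.21% and 6.46% of all genes. Beside Tgfbr1 and Tgfbr2, these were Bambi and Acvrl1. Bambi, a pseudoreceptor without a kinase that inhibits TGF-beta receptors, was 91.2, 102 and 117 CPM in ILC3, against 2.06 and 11.6 CPM in CD4 T (log2 difference 3.92, SE 0.764, edgeR adjusted p = 0.0235). The Bambi levels were well apart, and the difference was 3.15 with CD4 T replicate 1 left out and 5.66 with replicate 2 left out. It was not called without ILC3 replicate 1 (edgeR adjusted p = 0.0642), 2 (0.063) or 3 (0.0566). Acvrl1, the type I receptor ALK1 of endothelial cells, had no count in ILC3 and 10.3 and 1.19 CPM in CD4 T and was at least 130.5-fold lower in ILC3 (edgeR adjusted p = 0.0475). Its call was lost without any single library except CD4 T replicate 2 (edgeR adjusted p from 0.0764 to 0.28 when lost). The bound was at least 24.0-fold without CD4 T replicate 1, at least 208-fold without CD4 T replicate 2 and at least 70.6-fold without ILC3 replicate 1. Tgfbr3, the coreceptor betaglycan, chosen after its values were seen, was 0.613, 0.897 and 17.3 CPM in ILC3, against 0.396 and 9.42 CPM in CD4 T, so single libraries held most of it in each group.

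In the list of SMADs and their partners, Smad2 and Smad7 were the only called genes among 9 tested, beside 13.7% of all genes. Outside the members, Smad5, a receptor-phosphorylated SMAD of the bone morphogenetic protein branch, had the highest CPM averaged over the 5 libraries, although in each CD4 T library Crebbp, Ep300 and Trim33 had more CPM than Smad5. Smad5 was 43.4, 39.2 and 47.1 CPM in ILC3, against 11.0 and 20.4 CPM in CD4 T. Every ILC3 library was above both CD4 T libraries, and the log2 difference was 1.47 (SE 0.386, edgeR adjusted p = 0.052). Smad5 thus missed the threshold, and it was called under 7 of 15 alternative settings. Smad1, of the same branch and chosen after its values were seen, was 5.34, 3.84 and 4.62 CPM in ILC3, against 18.0 and 5.20 CPM in CD4 T (edgeR adjusted p = 0.241). Smad6, the inhibitory SMAD of that branch, chosen likewise, had no count in ILC3 and 3 and 10 counts in CD4 T, and did not pass the filter.

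In the list of inhibitors and turnover, 3 of 15 tested genes were higher and 2 lower, beside 6.46% and 7.21% of all genes. The lower ones were Smad7 and Pmepa1. At an unadjusted edgeR p under 0.05, 3 were higher and 5 lower. DESeq2 called 3 higher and 5 lower, with Smurf2, Ldlrad4 and Rnf111 added to the lower ones. By limma-voom 3 were called higher and 3 lower, Rnf111 among them. Nedd4l, a ubiquitin ligase known from human cells to act on phosphorylated SMAD2 and SMAD3, was 171, 181 and 156 CPM in ILC3, against 6.94 and 6.50 CPM in CD4 T (log2 difference 4.66, SE 0.318, edgeR adjusted p = 0.00119). Pmepa1, an inhibitor that TGF-beta induces and that binds SMAD2 and SMAD3, was 3.68, 2.75 and 4.79 CPM in ILC3, against 121 and 63.9 CPM in CD4 T (log2 difference -4.62, SE 0.437, edgeR adjusted p = 0.00295). These inhibitors went in opposite directions, and both calls held when any single library was left out. Strap, which assists the binding of SMAD7 to the receptor (log2 difference 1.45, edgeR adjusted p = 0.0378), and the corepressor gene Tgif1 (log2 difference 1.17, edgeR adjusted p = 0.0455) were higher in ILC3. Both calls were lost without any single ILC3 library or CD4 T replicate 1 (edgeR adjusted p from 0.0733 to 0.124) and with library size alone (0.152 for Strap and 0.241 for Tgif1). Nedd4l shares exon bases with an annotated gene on the other strand, as do Thbs1, Acvrl1, Cdkn1a and Rhoa, and Smad5 does with a gene on its own strand. The strand setting of the counts is not given in the sources used here. No exon of the 10 members overlaps another annotated gene.

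In the non-SMAD branch 0 of 9 tested genes were called by edgeR, DESeq2 or limma-voom, and 0 had an unadjusted edgeR p under 0.05. Of all genes edgeR called 13.7%. Rhoa, a GTPase of the cytoskeleton that TGF-beta can activate, had the highest CPM averaged over the 5 libraries there, at 143, 152 and 122 CPM in ILC3, against 52.8 and 113 CPM in CD4 T (log2 difference 0.75, SE 0.383, edgeR adjusted p = 0.225). It was called without CD4 T replicate 2, with edgeR adjusted p = 0.0266 and a log2 difference of 1.41.

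In the list of genes known to respond to TGF-beta in lymphocytes or other cells, 5 of 15 tested genes were lower in ILC3 and 1 higher. Of all genes tested 7.21% were lower and 6.46% higher. DESeq2 called 2 higher and 6 lower, limma-voom called 2 higher and 5 lower, and both added Rgs1 to the higher ones. Rgs1 was 3086, 2957 and 2651 CPM in ILC3, against 1165 and 1741 CPM in CD4 T (edgeR adjusted p = 0.0828). Smad7 and Pmepa1, counted among the inhibitors as well, were joined by Itgae, Id3 and Tgfbi among the lower genes. Skil, another known target, was not called. Itgae, which encodes the CD103 integrin chain of intraepithelial lymphocytes and some dendritic cells, was 0.0361, 0.769 and 2.34 CPM in ILC3, against 75.1 and 77.8 CPM in CD4 T (log2 difference -6.22, SE 1.17, edgeR adjusted p = 0.0215). Its log2 fold change was -7.71 without ILC3 replicate 3 and -5.62 without replicate 1, and it was not called without ILC3 replicate 2 (edgeR adjusted p = 0.0792) or CD4 T replicate 1 (0.0736). Id3, an inhibitor of E proteins, was 2.02, 3.33 and 4.21 CPM in ILC3, against 26.5 and 23.6 CPM in CD4 T (log2 difference -2.97, SE 0.526, edgeR adjusted p = 0.0176). The Id3 call was lost without ILC3 replicate 1 (0.056), 2 (0.0631) or CD4 T replicate 1 (0.0698).

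Tgfbi, an extracellular matrix gene known from macrophages and chosen after its values were seen, was 0.0361, 0 and 2.10 CPM in ILC3, against 161 and 45.5 CPM in CD4 T (edgeR adjusted p = 0.0348). Cdkn1a, the cell cycle inhibitor p21, went the other way, at 424, 346 and 299.9 CPM in ILC3, against 101 and 76.4 CPM in CD4 T (log2 difference 2.01, SE 0.323, edgeR adjusted p = 0.0135). Cdkn1a was not called without ILC3 replicate 2 (edgeR adjusted p = 0.052) or with library size alone (0.0541). Like the lower genes of this list, markers of several cell types given above were lower in ILC3. These were 7 of 8 plasmacytoid dendritic cell, 8 of 12 myeloid, 3 of 4 CD8 T cell and 5 of 10 CD4 T markers. Of the myeloid markers 1 was higher. The part of any of these cells in the lower genes was not tested.

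**Figure D5:**
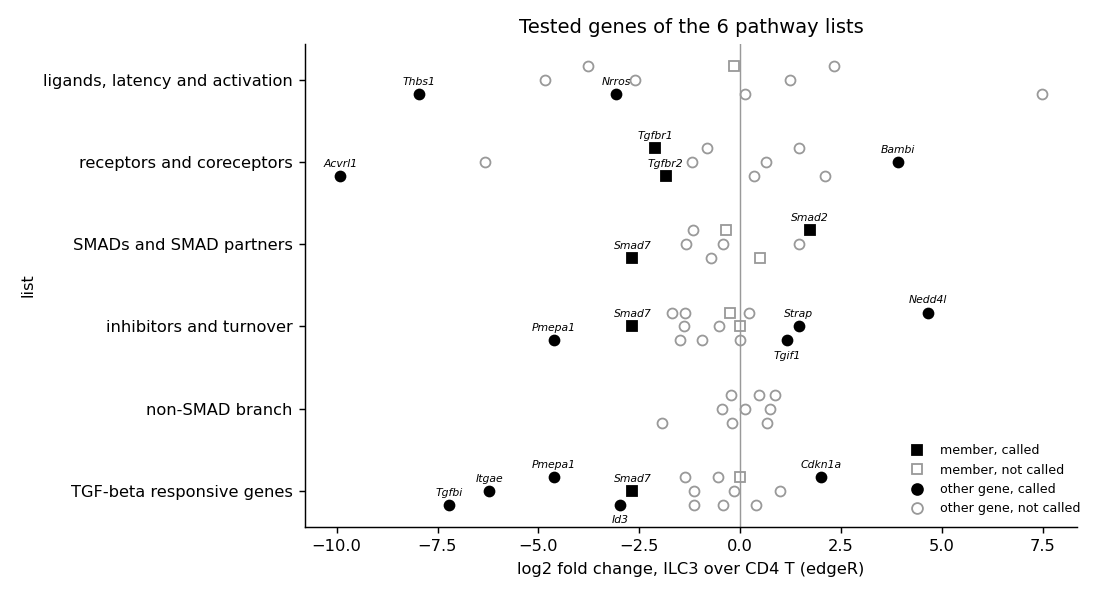
Log2 fold change of ILC3 over CD4 T on the x axis for every tested gene of the 6 pathway lists, with squares for members, circles for other genes and filled, named symbols for called genes. Genes with no count in a group, such as Acvrl1, have a fitted value that depends on the prior count and is no measured size.

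Genes whose log2 CPM followed a called member most closely over the 5 libraries were sought among genes of like mean level. They were Trim30a and Anp32e for Tgfbr1, Fyn and Rasgrp2 for Tgfbr2, Dnajb6 and Arcn1 for Smad2, and Pdlim1 and Tet2 for Smad7. Pearson's r was 0.999 or above for each, over 5 points that fall into 2 groups and share their libraries, and among 1829 to 3147 genes compared for each member. It is a description of profile shape only. Fyn averaged 32.2 CPM in ILC3, against 246 CPM in CD4 T, and Arcn1 98.4 CPM in ILC3, against 20.0 CPM in CD4 T.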

How the data were processed

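The deposited values are counts per gene, whole numbers that the authors did not normalize, for 3 ILC3 and 2 CD4 T libraries. Per the labels' protocols, a SMARTer kit for ultra low input, which amplifies cDNA from few cells, gave the libraries. The tools in the submitters' processing notes are STAR 2.3.0 and CASAVA 1.8.2, with build mm10. How reads were counted, and with which strand setting, is not given in the sources used here. Of 27179 identifiers, 25275 matched a RefSeq symbol of GRCm38.p6, and the others stayed in the fits.

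The tests used edgeR 4.0.16 under R 4.3.3 (filterByExpr, TMM, glmQLFit, glmQLFTest, no covariate), with Benjamini-Hochberg adjustment over 12747 genes. The procedure was also run on simulated counts in which 200 genes were changed by known folds. That run checks the procedure and not the calls made here. CPM are counts over TMM-scaled library size. The SE is the log2 fold change divided by the square root of F. Exon lengths came from GENCODE release M21. DESeq2 1.42.0, limma-voom 3.58.1, other scalings and filters, robust dispersion, a replicate block and leaving out each library were alternatives.

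The members and lists were chosen with earlier results of these data known. Named genes are the members, up to 4 called genes of smallest p per list (or the gene of highest mean CPM where none was called), and the 2 nearest profiles per called member. Replicate numbers were not taken as pairs because the labels do not tie libraries to mice. Deviations of same-numbered libraries from their group means had r of -0.0235 and -0.0338 over 12747 genes. With 2 CD4 T libraries the deviations mirror each other, so these values cannot tell whether libraries were paired.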

Additional observations from a re-analysis of the deposited data

How the results depend on the processing

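The 3 lower members and the higher Smad2 kept their directions under all 15 alternatives. Their calls held in each of the DESeq2 size factor, upper quartile, segment gene, filter, DESeq2, limma-voom and robust fits. Tgfbr1 was called in 11 of the 15, Tgfbr2 and Smad7 in 14 and Smad2 in 9. The tested members that were not called stayed so under each alternative.

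With library size alone 0 members were higher, 2 other pathway genes were higher, and 384 genes were higher and 1502 lower, a share of 20.4% higher among called genes where TMM gave 47.3%. The replicate block leaves 1 residual degree of freedom and rests on shared numbers that the labels do not tie to mice. With it 0 members were higher and 0 lower (edgeR adjusted p = 0.0533 for Smad7, 0.0791 for Tgfbr2, 0.0954 for Tgfbr1 and 0.122 for Smad2). Under that block 2 other pathway genes were higher, and 215 genes were higher and 305 lower. The DESeq2 test gave 9 and 11 other pathway genes and 1931 and 1951 genes higher and lower, limma-voom 8 other pathway genes higher and 1317 and 1402 genes, robust dispersion 8 other pathway genes higher, and no filter 1250 genes higher.

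When 1 library was left out, members called higher ran from 0 to 1 and lower from 2 to 3. Other pathway genes ran from 1 to 9 higher and from 1 to 9 lower, and all genes from 269 to 1712 higher and from 306 to 960 lower. These fits have fewer samples. The log2 fold change of Tgfb1 turned to 0.0672 with the block and ran from -0.36 to 0.0661 when a library was left out. That of Skil was 0.0031 with DESeq2 size factors, 3.94e-05 without segment genes, 0.0245 with no filter, 0.00486 with DESeq2, 0.0669 with limma-voom and 0.0711 with the block, and ran from -0.40 to 0.58 when a library was left out. By the length of the longest transcript, an alternative chosen after seeing the data, Tgfbr1 was 9.08 CPM per kilobase in ILC3 in place of 8.15. The order of the members did not change in ILC3, and in CD4 T Smad4 and Tgfbr2, which overlapped, changed places. Some overlaps did change. By that length the Tgfbr1 range in ILC3, 8.95 to 9.2, lay above those of Tgfb1 and Smad3. In CD4 T Tgfbr1 no longer overlapped the gene next below it. The Itgb8 difference rests on 52 counts, of which 50 lie in CD4 T replicate 2.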
